A study of Homo sapiens with 6 samples.

Results

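Interferon-stimulated genes are the genes that a cell switches on when it senses interferon. A list of 52 such genes was looked up by symbol in the count tables of 2 esophageal adenocarcinoma cell lines, Eso26 and OE33, and 51 of them were found among 37493 gene identifiers. RNF213, the remaining listed gene, was not analysed here. Each line had 1 RNA-seq library from cells transfected by Lipofectamine RNAiMAX with a non-silencing siRNA (control) and 1 from cells transfected with an siRNA against the nuclear receptor gene PPARG (siPPARG). The medium was RPMI-1640 for Eso26 but DMEM for OE33, so line and medium cannot be told apart. By its title the study concerned PPARG, master regulators of transcription and the making of fatty acids in this cancer. The design text speaks of triplicates, while each table has 1 column per condition, and it was not stated if columns are single libraries or sums. Time after transfection and passage: not given in the sources used here.

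Interferons of type I and type III bind receptors on the cell surface and activate the kinases JAK1 and TYK2, which phosphorylate STAT proteins. With IRF9 these form a complex that binds the interferon-stimulated response element (ISRE) in promoters of the genes described here, while interferon gamma (type II) acts through the gamma-activated sequence (GAS). The products block viral entry, degrade or sequester foreign RNA, modify proteins with ISG15 and amplify sensing. Epithelial cells are a main barrier where this programme operates, and some cancer lines express parts of it without added interferon.

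Each library held between 16866996 and 23019840 counts, and with 1 library per condition no spread between cultures can be given. Intervals below are 95% intervals for counting error, exact binomial for ratios. As a 1-sided 95% bound, a count of 0 allows up to 3 counts. All 7 epithelial markers were present in all 4 libraries. Of 12 immune markers, 5 to 9 were at 0 counts and the list summed to between 1.08 and 13.2 CPM. CPM are counts per 1000000 counts of the library, with the library total scaled by a TMM factor. For sums over marker lists that factor was set over all 4 libraries. CD3E, NKG7 and LILRA4 were at 0 in all 4 libraries. The highest in OE33 control and siPPARG were CD14 (83 and 94 counts), ITGAM (55 and 59) and CD79A (51 and 68). The 9 fibroblast and endothelial markers summed to between 4.28 and 12.0 CPM. PPARG itself went from 2156 to 313 counts in OE33, 7.37-fold lower in siPPARG. In Eso26 it held 259 counts in the control and 201 in the library labelled siPPARG, a ratio of 0.843 (interval 0.698 to 1.02), so the label of that library was not borne out by PPARG at this depth. Directions for Eso26 below refer to that label.

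Promoter windows of 31 of the 44 listed genes that have one hold letters of the ISRE core, and a few of these are shown first. RefSeq windows on GRCh38.p14, from 250 bases before to 50 bases after a start site, were given for 44 of the 52 listed genes, as 60 windows. The ISRE core was searched on both strands as GAAA, any 2 bases, GAAA, which reads TTTC, any 2 bases, TTTC on the other strand. The stretches below lie upstream of the start, read 5′ to 3′ on the gene's strand, with each match in capitals. They cover BST2 and IFITM1, which were among the members with the largest siPPARG differences in OE33, the classical targets IFIT1 and ISG15, IFITM3 and SAMD9, which were far apart between the lines, and the pair with the smallest differences, LGALS3BP and LAP3.
BST2: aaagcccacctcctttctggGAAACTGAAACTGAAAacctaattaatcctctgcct
IFITM1: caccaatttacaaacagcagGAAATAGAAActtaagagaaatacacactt
IFIT1: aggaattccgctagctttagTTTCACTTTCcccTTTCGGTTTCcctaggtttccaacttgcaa
ISG15: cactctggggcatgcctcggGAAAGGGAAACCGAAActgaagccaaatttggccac
IFITM3: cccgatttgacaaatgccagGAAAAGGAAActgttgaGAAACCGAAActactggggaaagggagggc
SAMD9: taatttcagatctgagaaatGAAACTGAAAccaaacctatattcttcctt
LGALS3BP: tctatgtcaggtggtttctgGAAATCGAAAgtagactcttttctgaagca
LAP3: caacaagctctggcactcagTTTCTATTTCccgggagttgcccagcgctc

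On GRCh38.p14 these stretches are chr19:17405725-17405780 on the minus strand for BST2, chr11:313980-314029 (plus) for IFITM1, chr10:89392487-89392549 (plus) for IFIT1 and chr1:1013364-1013419 (plus) for ISG15. IFITM3 is at chr11:320866-320932 (minus), SAMD9 at chr7:93118086-93118135 (minus), LGALS3BP at chr17:78979952-78980001 (minus) and LAP3 at chr4:17576995-17577044 (plus). Each lies outside the annotated span of its gene. BST2 and ISG15 hold overlapping matches, so that GAAA recurs at a fixed step, and IFIT1 and IFITM3 hold a pair of separate ones.

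The ISRE core was in 36 of the members' 60 windows (60.0%), against 1255 of all 35116 windows in the table (3.57%). By gene, 31 of 44 listed genes had it in at least 1 window (70.5%), against 1195 of 27305 genes (4.38%). Of 56 matches, 54 began upstream of the start, with a median position of -79.5. Some genes have several windows, and a site can then be counted in more than 1. The GAS core, searched as TTCNNNGAA, which reads the same on both strands and can overlap an ISRE match, was in 25.0% of the members' windows and 7.66% of all. The PPAR-type direct repeat, AGGTCA, any 1 base, AGGTCA on either strand, was in none of the members' windows and in 8 of all 35116, so windows of this length say little about it. A match is a description of letters and not evidence of a bound site. Members with and without the ISRE core overlapped in their response. The 31 with it had a median siPPARG log2 fold of 1.26 in OE33 (0.38 to 2.77), and the 12 kept genes with a window but no match had 1.10 (0.52 to 1.90).

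**Figure D1:**
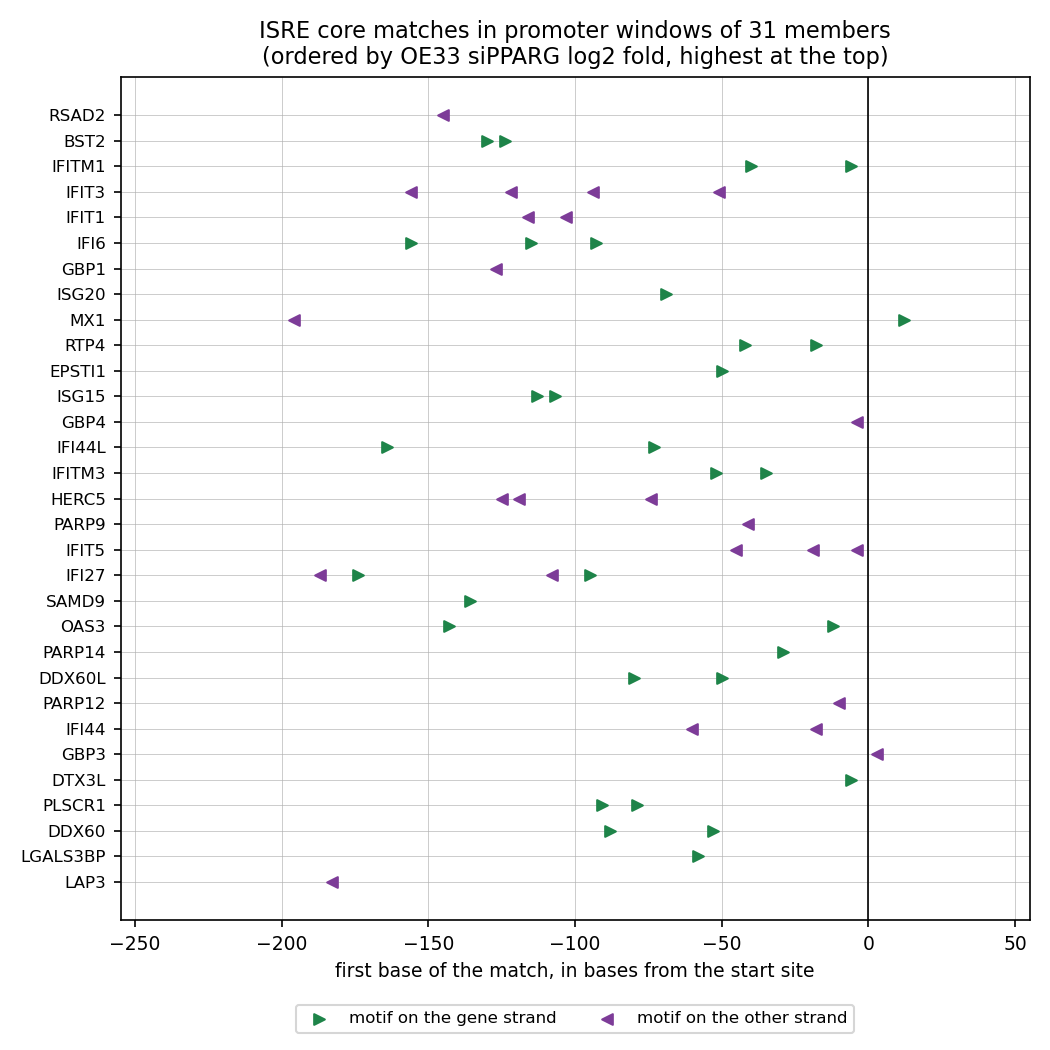
Position of each ISRE core match (x axis, bases from the start site, negative upstream) for 31 members in rows, ordered by OE33 siPPARG log2 fold; green points right for the gene's strand, purple points left for the other. Of 56 matches 54 begin upstream, from RSAD2 at the top to LAP3 at the bottom.

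The members are also grouped on the chromosomes. Taking only protein-coding genes in the GRCh38.p14 annotation, 27 listed genes sit next to another listed gene in 12 runs. Among these runs are members of the IFIT, IFITM, OAS, MX and GBP families, CMPK2 with RSAD2, PARP9 with DTX3L, and HERC6 with HERC5. Members of 1 family therefore share sequence and position and are not independent of each other. How reads shared by several relatives were counted, and with which strand setting, was not stated.

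The comparison of siPPARG with control in OE33 asks how these genes stand when PPARG is reduced. All 50 members at 5 CPM or more in either library were higher in siPPARG, where 48.7% of all 10527 genes kept were higher. Each of the 50 had a counting interval of its ratio above 1, a share not given here for all genes. Of the 50 members, 30 were past 2-fold, against 1.04% of all genes kept. Past 1.5-fold there were 45 members, against 3.26% of all genes. The median log2 fold (TMM-scaled CPM, prior count 2) was 1.13, with a range from 0.38 to 2.77, beside a median of -0.0075 over all genes kept. All 50 also reached 5 CPM in both OE33 libraries, so that none was kept through siPPARG alone. Among the 100 highest log2 folds of all genes 29 were members, and among the 10 highest 5 were, where members made up 50 of the 10527 genes kept. The list was chosen with earlier results of these data known, so this ranking is a description only. The members' share of all counts was 0.759% in OE33 control cells and 1.58% after siPPARG, against 0.320% and 0.318% in Eso26. The 2 OE33 libraries differ in the siRNA as well as in PPARG, and these cannot be told apart. Whether 1 siRNA or a pool was used was not stated.

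In Eso26 the members kept were nearly level. Of 42 members at 5 CPM or more, 20 were higher and 22 lower in the library labelled siPPARG, where 48.6% of all 10443 genes kept were higher and 51.4% lower. None of these 42 passed 1.5-fold, against 1.25% of all genes higher and 1.15% lower past that size. None was past 2-fold either, where the background was 0.0575% higher and 0.144% lower. The median log2 fold was -0.053, and 0.0022 with a filter of 10 CPM, beside -0.0073 over all genes. The range ran from -0.52 to 0.26. Counting intervals included no change for 20 members, lay below 1 for 15 and above 1 for 7. The same shares over all genes are not given here, so these counts cannot be called particular to the members. SAMD9L was the member kept through its control library alone.

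The filter of 5 CPM left out 1 gene in OE33 and 9 in Eso26. In OE33 the gene left out was IFITM2 (0.177 and 0.442 CPM), and the nearest inside were ISG20 (5.97 and 18.3 CPM) and GBP4 (6.09 and 15.8 CPM). In Eso26 the nearest outside were UBE2L6 (4.81 and 4.36 CPM) and OASL (2.12 and 3.79 CPM), and the nearest inside were SAMD9L (6.49 and 4.51 CPM) and IFIT2 (6.57 and 5.75 CPM). The others left out in Eso26 were RSAD2, IFI44L, RTP4, IFITM2, IFITM3, IFI16 and GBP4, which held between 5 and 77 counts. Past 1.5-fold higher in Eso26 among those left out were OASL (ratio 1.79, interval 1.23 to 2.62), RTP4 (1.70, interval 1.05 to 2.79) and IFITM2 (1.96, interval 1.10 to 3.57). UBE2L6, RSAD2, IFI44L, IFI16 and GBP4 were lower there and IFITM3 higher, each with an interval that included no change. All these ratios rest on low counts.

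**Figure D2:**
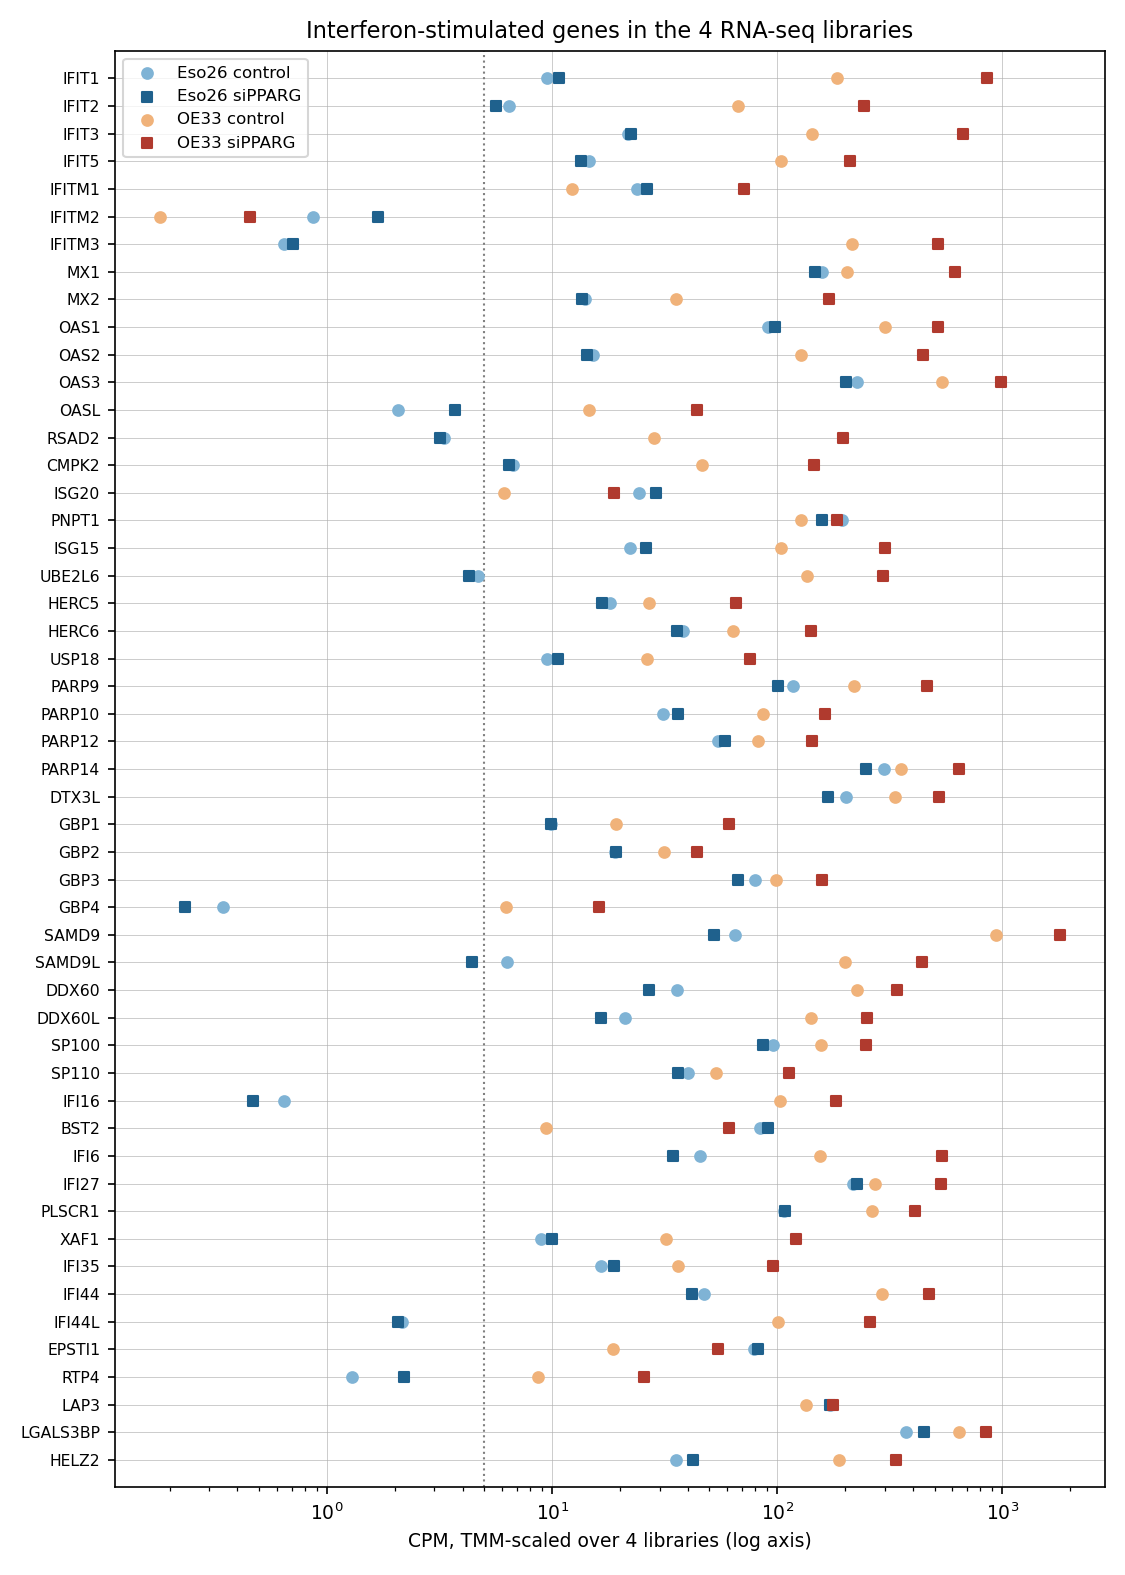
CPM of the 51 members (rows, by role) in the 4 libraries, on a log x axis with TMM scaling over all 4; circles are controls, squares siPPARG, blue Eso26 and red-orange OE33, and the dotted line is 5 CPM. The OE33 square lies to the right of the OE33 circle in every row, while the Eso26 symbols lie close together in most rows; BST2, ISG20, EPSTI1 and IFITM2 have both Eso26 symbols to the right of both OE33 symbols.

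The IFIT proteins bind foreign RNA ends and block its translation. IFIT1 held 221 and 230 counts in Eso26 control and siPPARG, and 3070 and 15028 in OE33. It was thus far higher in both OE33 libraries, and 4.58-fold higher in OE33 siPPARG than in its control (interval 4.40 to 4.76). IFIT3, a partner of IFIT1, held 506 and 477 counts in Eso26 and 2368 and 11839 in OE33, a ratio of 4.67 (interval 4.47 to 4.89). IFIT2 went from 149 to 120 counts in Eso26 and from 1114 to 4265 in OE33 (3.58-fold, interval 3.35 to 3.83). IFIT5 had the smallest ratio of the family in OE33, 2.02 (interval 1.91 to 2.14), with 1722 and 3720 counts. In Eso26 the intervals of all 4 ratios included no change.

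IFITM proteins sit in membranes and hinder the fusion of viruses with the cell. IFITM1 held 551 and 566 counts in Eso26 and 204 and 1249 in OE33, so the OE33 control was the lowest library and OE33 siPPARG the highest. Its OE33 ratio was 5.72 (interval 4.93 to 6.67). IFITM3 showed the widest gap between lines of any member, with 15 counts in each Eso26 library and 3570 and 9149 in OE33. The OE33 ratio for IFITM3 was 2.40 (interval 2.30 to 2.49). IFITM2 held 20 and 36 counts in Eso26 and 3 and 8 in OE33, too few to read. These 3 genes are close relatives and lie side by side.

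MX1 and MX2 encode dynamin-like GTPases that trap viral components. MX1 was similar in 3 libraries by count, with 3670 and 3144 in Eso26, 3390 in the OE33 control, while OE33 siPPARG held 10912, which was 3.01-fold above its control (interval 2.90 to 3.13). MX2 held 325 and 289 counts in Eso26 and 591 and 2993 in OE33, a ratio of 4.73 (interval 4.33 to 5.18). In both genes OE33 siPPARG was the highest library by a wide margin.

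The OAS enzymes make the second messenger that activates RNase L when double-stranded RNA is present, and OASL is a relative without that activity. OAS2 held 354 and 304 counts in Eso26 and 2109 and 7857 in OE33 (3.48-fold, interval 3.32 to 3.66). OASL held 48 and 79 in Eso26 and 243 and 776 in OE33 (2.99-fold, interval 2.58 to 3.46). OAS3 and OAS1, the more highly counted members of the family, differed less in OE33. OAS3 went from 8989 to 17410 counts (1.81-fold, interval 1.77 to 1.86) and OAS1 from 5021 to 9172 (1.71-fold, interval 1.65 to 1.77). OAS1, OAS3 and OAS2 are neighbours on chromosome 12, and their Eso26 ratios lay between 0.887 and 1.07.

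RSAD2 encodes viperin, which makes a chain-terminating nucleotide, and its neighbour CMPK2 encodes a nucleotide kinase. RSAD2 had the largest OE33 log2 fold of all members, 2.77, from 470 to 3448 counts (6.86-fold, interval 6.23 to 7.57), while Eso26 held 77 and 68. CMPK2 went from 766 to 2560 in OE33 (3.12-fold, interval 2.88 to 3.39) and held 155 and 137 in Eso26. The exonuclease gene ISG20 had the reverse order of lines. It held 566 and 616 counts in Eso26 against 101 and 331 in OE33, where it was 3.06-fold higher in siPPARG (interval 2.44 to 3.87). PNPT1, a mitochondrial RNA-degrading enzyme, held 4495 and 3376 counts in Eso26 and 2109 and 3242 in OE33. Its ratio was 1.44 in OE33 (interval 1.36 to 1.52) and 0.816 in Eso26 (interval 0.780 to 0.854), so its counting intervals lay on opposite sides of 1.

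ISG15 is a ubiquitin-like modifier; UBE2L6 is its conjugating enzyme, HERC5 its ligase and USP18 the protease that removes it. All 5 genes of this group, including the related ligase HERC6, were past 2-fold in OE33. ISG15 held 517 and 558 counts in Eso26 and 1719 and 5329 in OE33 (2.90-fold, interval 2.74 to 3.06). USP18, also a feedback inhibitor at the type I receptor, went from 437 to 1332 in OE33 (2.85-fold, interval 2.56 to 3.18) and held 220 and 226 in Eso26. HERC5 held 419 and 356 counts in Eso26 and 449 and 1151 in OE33 (2.40-fold, interval 2.15 to 2.68). UBE2L6 was the group member most unlike between lines, with 109 and 91 counts in Eso26 and 2243 and 5197 in OE33 (2.17-fold, interval 2.06 to 2.28). HERC6 had a ratio of 2.20 (interval 2.04 to 2.36). USP18 has close copies in the genome, so its counts are uncertain.

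The ADP-ribosyltransferase genes PARP9, PARP10, PARP12 and PARP14 and the ubiquitin ligase gene DTX3L, whose product pairs with PARP9, differed less. Only PARP9 among these 5 was past 2-fold in OE33, from 3640 to 8185 counts (2.10-fold, interval 2.02 to 2.19). PARP10 stood at 1.86-fold (1441 and 2861 counts), PARP14 at 1.80-fold (5891 and 11370), PARP12 at 1.73-fold (1356 and 2516) and DTX3L at 1.56-fold (5508 and 9183). In Eso26 PARP14 went from 6930 to 5295 counts (ratio 0.830, interval 0.801 to 0.861) and DTX3L from 4695 to 3601 (0.834, interval 0.798 to 0.871). PARP9 had a ratio of 0.853 there and PARP10 one of 1.17.

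Guanylate-binding proteins are GTPases that attack vacuoles and membranes of intracellular pathogens, and they respond most to interferon gamma. GBP1 held 229 and 212 counts in Eso26 and 318 and 1077 in OE33 (3.17-fold, interval 2.79 to 3.60). GBP4 was nearly silent in Eso26, with 8 and 5 counts, and went from 103 to 286 in OE33 (2.60-fold, interval 2.07 to 3.28). The neighbours of GBP1 differed less. GBP3 went from 1638 to 2795 in OE33 (1.60-fold) and from 1856 to 1427 in Eso26 (0.836, interval 0.779 to 0.896). GBP2 went from 519 to 776 in OE33 (1.40-fold, interval 1.25 to 1.57).

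SAMD9 and SAMD9L are large paralogous host factors that restrict poxviruses, and DDX60 and DDX60L are paralogous helicase-like proteins. SAMD9 was the most counted member in both OE33 libraries, with 15582 and 31714 counts, against 1502 and 1120 in Eso26. Its OE33 ratio was 1.90 (interval 1.87 to 1.94). SAMD9L held 147 and 94 counts in Eso26 and 3323 and 7724 in OE33 (2.17-fold, interval 2.09 to 2.26). In Eso26 all 4 genes were lower in the library labelled siPPARG, with intervals below 1. SAMD9L stood at 0.695 (interval 0.531 to 0.906), DDX60 at 0.753 (833 and 577 counts, interval 0.676 to 0.838), DDX60L at 0.782 (interval 0.680 to 0.899) and SAMD9 at 0.810. Their median log2 fold in Eso26 was -0.38. In OE33 DDX60 went from 3749 to 6000 counts (interval of the ratio 1.44 to 1.56), and DDX60L from 2342 to 4437 (1.77-fold).

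SP100 and SP110 are nuclear body proteins and IFI16 binds DNA in the nucleus. SP110 held 929 and 776 counts in Eso26 and 883 and 1994 in OE33 (2.11-fold, interval 1.95 to 2.29). IFI16 was nearly absent from Eso26, with 15 and 10 counts, and held 1698 and 3231 in OE33 (1.78-fold, interval 1.68 to 1.89). SP100 went from 2587 to 4387 in OE33 (1.59-fold, interval 1.51 to 1.66).

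BST2 (tetherin) holds budding virions at the cell surface. It held 1945 and 1937 counts in Eso26 but 156 in the OE33 control against 1072 with siPPARG, 6.42-fold higher (interval 5.43 to 7.65), and so remained below both Eso26 libraries. XAF1, a promoter of apoptosis, held 208 and 213 in Eso26 and 532 and 2131 in OE33 (3.74-fold, interval 3.40 to 4.13). IFI6, a small hydrophobic protein of mitochondria and endoplasmic reticulum, held 1055 and 737 in Eso26 and 2561 and 9511 in OE33. Its ratio was 3.47 in OE33 (interval 3.32 to 3.63) and 0.759 in Eso26 (interval 0.690 to 0.835). The other 2 of this group were less far apart. IFI27 held 5040 and 4818 counts in Eso26 and 4532 and 9380 in OE33 (1.93-fold, interval 1.87 to 2.01), and PLSCR1, a phospholipid scramblase, stood at 1.54-fold (4365 and 7212 counts).

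IFI44 and its paralog IFI44L are neighbours on chromosome 1. IFI44L held 50 and 44 counts in Eso26 and 1672 and 4566 in OE33 (2.55-fold, interval 2.41 to 2.70), while IFI44 held 1094 and 889 in Eso26 and 4855 and 8325 in OE33 (1.60-fold, interval 1.55 to 1.66). IFI35 held 383 and 403 counts in Eso26 and went from 601 to 1688 in OE33 (2.63-fold, interval 2.39 to 2.89). Of the other members, RTP4, a chaperone of receptor transport, held 30 and 47 in Eso26 and 143 and 452 in OE33 (2.96-fold, interval 2.44 to 3.59). EPSTI1 held 1825 and 1746 in Eso26 and 310 and 965 in OE33 (2.91-fold, interval 2.56 to 3.32), again with OE33 below Eso26. HELZ2, a helicase-like coactivator of PPAR receptors, went from 3133 to 5942 in OE33 (1.77-fold, interval 1.70 to 1.85) and from 827 to 901 in Eso26 (1.18-fold, interval 1.08 to 1.30). The smallest OE33 differences were those of the aminopeptidase gene LAP3, 2237 and 3109 counts (1.30-fold, interval 1.23 to 1.37), and the secreted glycoprotein gene LGALS3BP, 10602 and 14918 (1.32-fold, interval 1.28 to 1.35). In Eso26 LGALS3BP had the largest ratio of the kept members, 1.20 (interval 1.17 to 1.24), from 8693 to 9595 counts.

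The siPPARG log2 fold was larger in OE33 than in Eso26 for all 42 members kept in both lines, with a counting interval of the difference above 0 for each. Over all 9588 genes kept in both lines, 49.4% had the larger fold in OE33 and 26.8% had such an interval. The median difference was 1.22 on the log2 scale, beside -0.0047 over those genes, and 27 members differed by more than 1, against 1.12%. The ratio's interval lay above 1 in OE33 and below 1 in Eso26 for 15 members, against 8.3% of these genes, and the other way for none, against 5.97%. BST2 stood farthest apart (2.67 in OE33 against 0.11 in Eso26, a difference of 2.55, interval 2.30 to 2.81) and LGALS3BP least (0.40 against 0.26, a difference of 0.13, interval 0.08 to 0.19). With 1 library per condition the difference between lines has no test over cultures. Since PPARG was reduced in OE33 and not detectably in Eso26, the lines differ in the knockdown as well as in its readout, and these cannot be told apart.

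**Figure D3:**
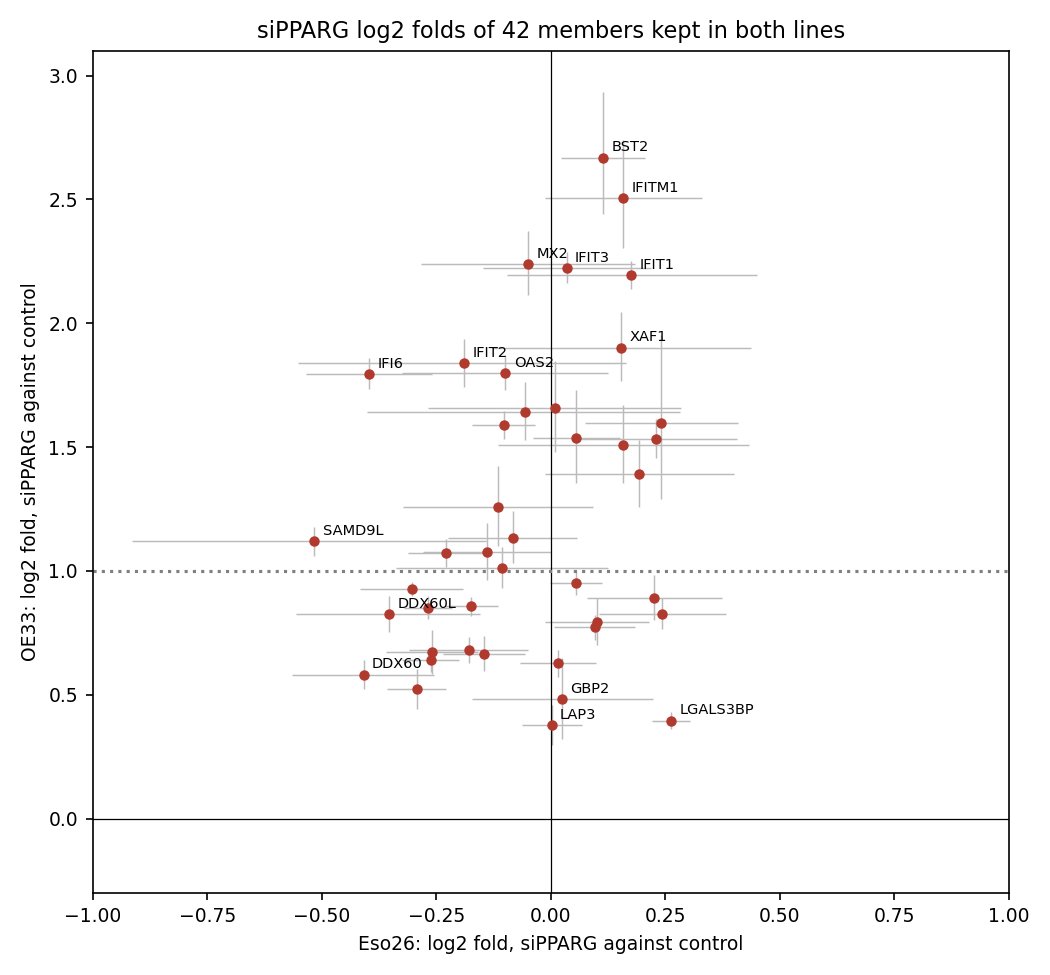
siPPARG log2 fold in Eso26 (x axis) against OE33 (y axis) for the 42 members kept in both lines, with 95% counting intervals as grey bars and 2-fold in OE33 as a dotted line. All points lie above 0 on the y axis, between 0.38 and 2.67, and between -0.52 and 0.26 on the x axis.

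A fit of all 4 libraries with cell line and treatment as terms asks whether siPPARG had an effect common to both lines. edgeR's quasi-likelihood test, adjusted over all 11382 genes (Benjamini-Hochberg), called none of the 50 members tested and 0% of all genes. The smallest adjusted p of a member was 0.604, for OASL, and 22 members had an unadjusted p under 0.05, against 5.05% of all genes. DESeq2 and limma-voom also called 0 members. At an unadjusted p under 0.05 they had 13 and 28 members, against 2.39% and 5.81% of all genes. This fit has 1 residual degree of freedom, and a response in 1 line alone enters its residual as spread.

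The control libraries of the 2 lines show how the programme stood without siPPARG. Of 50 members kept, 44 were higher in the OE33 control than in the Eso26 control and 6 lower, where the shares of all 11205 genes kept were 50.4% and 49.6%, and 30 were higher past 2-fold, against 21.1% of all genes. Past 2-fold in the other direction were 3 members, against 16.6% of all genes. At 1.5-fold there were 37 higher and 5 lower, against 31.4% and 28%. The median log2 fold was 1.46, beside 0.012 over all genes. IFITM3, IFI16, IFI44L, UBE2L6, GBP4, OASL, RSAD2 and RTP4 were under 5 CPM in the Eso26 control and so were kept through the OE33 control alone. Among the 42 members at 5 CPM in both controls, 22 were higher past 2-fold, against 16% of all 9423 such genes; this filter was chosen after seeing the data. This comparison and the OE33 one share the OE33 control library, so their values are given side by side only.

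**Figure D4:**
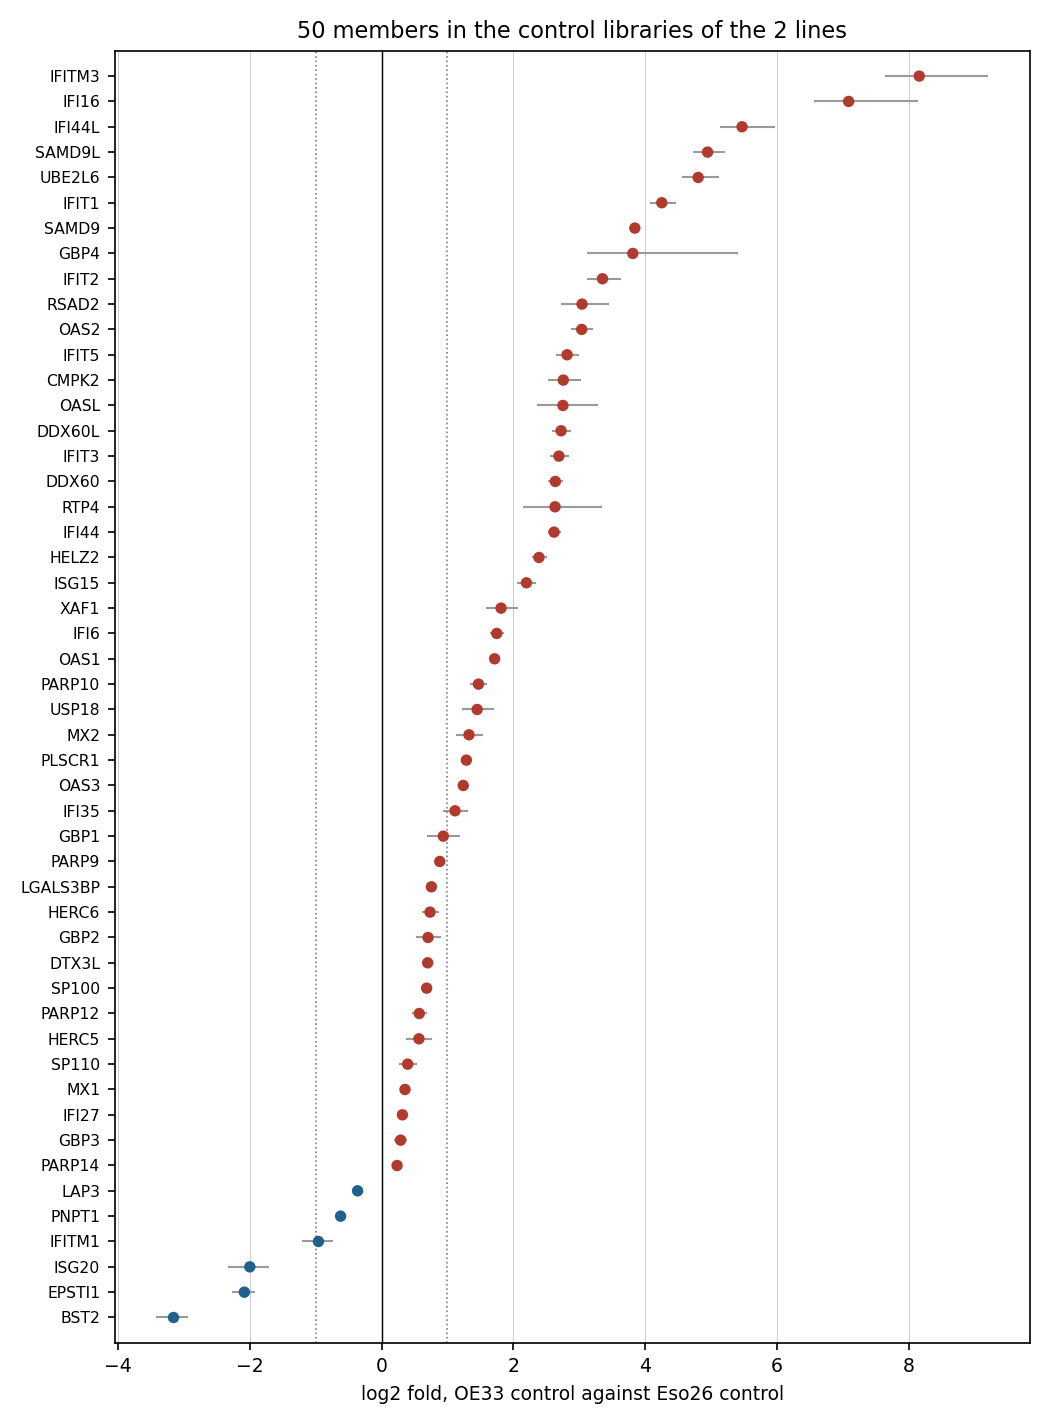
log2 fold of the OE33 control against the Eso26 control (x axis) for the 50 members kept, in order, with 95% counting intervals as grey bars and 2-fold as dotted lines. The fold runs from -3.16 for BST2 to 8.16 for IFITM3, with 6 members below 0.

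At the OE33 end of that order the log2 fold was 8.16 for IFITM3 (15 against 3570 counts), 7.09 for IFI16 (15 against 1698), 5.47 for IFI44L (50 against 1672) and 4.95 for SAMD9L (147 against 3323). Next came UBE2L6 (4.80), IFIT1 (4.25), SAMD9 (3.84) and GBP4 (3.81). In CPM over all 4 libraries, IFITM3 stood at 0.646 and 0.702 in Eso26 and 215 and 519 in OE33. At the other end, BST2 stood at a ratio of 0.111 in the OE33 control (interval 0.0938 to 0.131), EPSTI1 at a ratio of 0.235 and ISG20 at 0.247. IFITM1 (0.513), PNPT1 (0.650) and LAP3 (0.777) were lower by less. PARP14 (1.18-fold) and GBP3 (1.22-fold) were the least different of those higher in OE33.

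Ordered by CPM over all 4 libraries, 44 of 51 members had both OE33 libraries above both Eso26 libraries, with OE33 siPPARG highest. The same order held for 24.8% of all 11382 genes at 5 CPM in any library. Of those 44, IFITM3, IFI16, IFI44L, UBE2L6, GBP4, OASL, RSAD2 and RTP4 reached 5 CPM in OE33 alone. For them OE33 above Eso26 was fixed by that filter. The 51 also include IFITM2, which was under 5 CPM in all 4 libraries. BST2, ISG20, EPSTI1 and IFITM2 had both Eso26 libraries above both OE33 libraries. IFITM1 and LAP3 had OE33 siPPARG highest and the OE33 control lowest, and PNPT1 had the Eso26 control highest and the OE33 control lowest. The 2 Eso26 libraries were neighbours in all but the last of these orders. They did not differ beyond counting error for 20 of the 42 members kept in Eso26, a share not given here for all genes. For LAP3, OE33 siPPARG (176 CPM) and both Eso26 libraries (172 CPM each) were close.

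The line term of the same 4-library fit was past an adjusted p of 0.05 by edgeR's quasi-likelihood test for 47 of 50 members, 44 higher in OE33 and 3 lower. Of all genes 72.3% were called, 36.4% higher and 35.9% lower. IFITM3, IFI16, IFI44L, UBE2L6, GBP4, OASL, RSAD2 and RTP4 were under 5 CPM in both Eso26 libraries and so were kept through OE33 alone. All of these were among the members called higher, a direction fixed by that filter. The members not called were IFITM1, PNPT1 and LAP3, with adjusted p from 0.245 to 0.689. The libraries within a line differ by treatment, so p-values measure spread between these libraries and not between cultures.

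The rest of the pathway was read from lists of whole pathway steps. None of the 12 interferon ligand genes found was at 5 CPM, and they summed to 3 and 1 counts in Eso26 and 6 and 12 in OE33. In OE33 control and siPPARG, IFNE held 1 and 6 counts, IFNL1 2 and 4, IFNL2 2 and 1, and IFNB1 1 in each. With so few counts a difference in ligand RNA was not detectable at this depth. The share of all genes that was higher in OE33 siPPARG, 48.7%, and past 2-fold, 1.04%, is the background for the lists that follow. Of 6 receptor genes kept, 5 were higher there, none past 2-fold, and the largest difference was a lower one. IFNGR2, a subunit of the interferon gamma receptor, went from 1893 to 1415 counts (ratio 0.699, interval 0.652 to 0.749), IFNGR1 was 1.23-fold higher (interval 1.19 to 1.27), and IFNAR1 held 1685 and 1998 counts.

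Among the JAK and STAT genes, STAT2, a subunit of the ISRE-binding complex, was past 2-fold in OE33. It went from 849 to 1948 counts (2.15-fold, interval 1.98 to 2.33), while Eso26 held 544 and 516. JAK2 held 325 and 399 counts, with an interval of 0.989 to 1.33. IRF9, the DNA-binding subunit of that complex, was listed with 13 to 24 counts in all 4 libraries, under the filter; it is named here after its values were seen.

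Among 5 kept IRF genes none was past 2-fold. IRF7, which amplifies interferon production, came nearest, from 871 to 1834 counts in OE33 (1.97-fold, interval 1.81 to 2.14), with 114 and 135 in Eso26. IRF1 stood at 1.14-fold (interval 1.06 to 1.23) and IRF2 held 500 and 587 counts. Of the RNA and DNA sensor genes 9 were kept in OE33, and ZBP1 was kept through siPPARG alone. The other 8 were all higher in siPPARG and 1 of them, DHX58, passed 2-fold, against 0.752% of all 10242 genes at 5 CPM in both OE33 libraries. ZBP1, which binds nucleic acids in the Z form, held 26 and 257 counts in OE33 and 141 and 176 in Eso26. DHX58 went from 87 to 228 (2.45-fold, interval 1.91 to 3.17), and IFIH1, which encodes the double-stranded RNA sensor MDA5, from 1475 to 3081 (1.95-fold, interval 1.83 to 2.08). In Eso26, of 10 kept sensors 6 were higher and 4 lower, none past 2-fold, which is near the shares of all genes there (48.6% higher and 51.4% lower).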

How the data were processed

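RNA was sequenced in 4 libraries, 1 for each line and condition. The authors deposited unnormalized read counts, as whole numbers for each gene. Among tools, the submitters' processing notes list STAR, Bowtie, Trim Galore, MACS2 and Picard, on hg19, without roles; counter and annotation: not given in the sources used here. Both tables hold 37533 rows; 40 repeated identifiers were summed, which left 37493, of which 37402 matched the name table. The deposited PPARG peak lists are on hg19 and no hg19 annotation was used, so the planned placing of peaks at members was not run.

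Counts were scaled with TMM factors per pair of libraries (edgeR 4.0.16, R 4.3.3), and log2 folds had 2 as prior count. The filter kept genes reaching 5 CPM in either library, and 2-fold was the threshold of size. Ratios carry exact conditional binomial 95% intervals and cover counting error only. Differences of log2 folds carry normal-approximation counting intervals. The 4-library fit used edgeR's quasi-likelihood test with line and treatment, filtered at 5 CPM in any library, and DESeq2 1.42.0 and limma 3.58.1 as alternatives. These scripts were tested on simulated data. Replicates could not be compared or left out.

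The members, their role groups and the pathway lists were chosen with earlier results of these data known. Named genes were, in each role group, up to 3 members with the largest absolute log2 fold in OE33, up to 2 in Eso26 and the smallest in OE33, the 8 highest and 8 lowest in the control comparison, and up to 3 kept genes of each pathway list, with PPARG in every library. Promoter windows are from RefSeq. 1 gene of the pathway lists is not reported here.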

Additional observations from a re-analysis of the deposited data

Results flagged for a closer look

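For 15 members the counting intervals of the siPPARG ratio lay on opposite sides of 1 in the lines, above in OE33 and below in the library labelled siPPARG of Eso26; none lay the other way. Of all genes kept in both lines 8.3% had such intervals, and 5.97% had them the other way. The difference was not tested over cultures, since each condition had 1 library. The log2 folds in OE33 and Eso26 were 1.12 and -0.52 for SAMD9L, 0.58 and -0.41 for DDX60, 1.79 and -0.40 for IFI6, and 0.82 and -0.35 for DDX60L. They were 0.93 and -0.30 for SAMD9, 0.52 and -0.29 for PNPT1, 0.85 and -0.27 for PARP14, 0.64 and -0.26 for DTX3L, and 0.67 and -0.26 for GBP3. For PARP9 they were 1.07 and -0.23, for IFI44 0.68 and -0.18, for OAS3 0.86 and -0.17, for SP100 0.66 and -0.14, for SP110 1.08 and -0.14, and for MX1 1.59 and -0.10. None of the Eso26 values passed 1.5-fold.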

How the results depend on the processing

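The counts and medians of members kept their direction under scaling by library totals or DESeq2 size factors, other prior counts, filters at 1 or 10 CPM or none, dropped repeated identifiers without the IFIT, IFITM and GBP genes, and with 5 CPM asked of both libraries (chosen after seeing the data), with 1 exception. The Eso26 median of -0.053 turned to 0.0022 with a filter of 10 CPM, which kept 39 members. At a threshold of 3-fold, 14 members were higher in OE33 in place of 30, and the share of all genes past 3-fold is not given here. At 1.5-fold, 5 members in place of 3 were lower in the OE33 control than in the Eso26 control, against 28% of all genes. DESeq2 called 13 of all genes with siPPARG in place of 0, none of them a member. Without a filter, edgeR's quasi-likelihood test called 3 members higher with siPPARG in place of 0, among 42 of all 20401 genes, 22 of these higher. The line term then called 27 members higher in OE33 in place of 44, among 5127 of all genes higher; the cause was not tested. The single-gene value that moved beyond its counting interval was LGALS3BP in Eso26, at a log2 fold of 0.31 with library totals. No paired analysis was possible because each condition had 1 library and the labels give no replicate numbers. The placing of PPARG peaks and its alternatives were not run. Depth limits the Eso26 values of genes under 5 CPM.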

Other observations

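Genes that answer mainly to interferon gamma were in part on in OE33. Of 11 such genes listed, 5 were kept in OE33, and GBP5 was kept through siPPARG alone. The other 4 were higher in siPPARG and 1 of them, IDO1, was past 2-fold, against 0.752% of all genes at 5 CPM in both OE33 libraries. GBP5, a further guanylate-binding protein gene, went from 43 to 196 counts (4.26-fold, interval 3.05 to 6.07), IDO1, which degrades tryptophan, from 86 to 294 (3.20-fold, interval 2.51 to 4.11), and the adhesion gene ICAM1 from 927 to 1617 (1.63-fold). GBP5 and IDO1 were at 0 counts in both Eso26 libraries. The chemokine genes CXCL9, CXCL10 and CXCL11, classical interferon gamma targets, held 0, 0 and 1 counts in the OE33 control and 0, 1 and 6 in OE33 siPPARG, and CXCL10 held 32 and 12 in Eso26; they are named after their values were seen.

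A list of 5 feedback inhibitors, which does not hold USP18, had 4 genes kept in OE33. Of these 2 were higher in siPPARG and 2 lower, none past 2-fold, where 48.7% of all genes kept were higher, with SOCS3 at 1.23-fold (interval 1.12 to 1.35), PTPN6 with 425 and 506 counts and PTPN2 with 585 and 573. SOCS3 stood far apart between lines, at 20 counts in each Eso26 library and 770 and 1010 in OE33. Of the 10 reference genes, B2M, the light chain of MHC class I and itself responsive to interferon, was 1.53-fold higher in OE33 siPPARG (interval 1.51 to 1.56), while GAPDH held 47175 and 50159 counts. The reference list as a whole had a median log2 fold of 0.0589 in OE33.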
